A study of Mus musculus with 6 samples.

Results

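The genes of haem breakdown and iron handling were examined in Gata6-deficient and wild type resident macrophages of the mouse peritoneal cavity. The set was chosen by gene symbol, with earlier results of these data known. It holds 10 genes: Hmox1, Hmox2, Blvra, Blvrb, Slc40a1, Slc11a1, Slc11a2, Fth1, Tfrc and Spic. Every probe set annotated with 1 of these symbols alone was taken, which gave 21 of the 45101 probe sets on the array and 10 of the 18194 genes with such a probe set. The 3 Gata6-KO samples came from mice with a conditional ("floxed") deficiency of Gata6, a zinc finger transcription factor, and the 3 Gata6-WT samples from wild type mice. All mice were 7 weeks old, and the series design calls them sex-matched. Each sample was a pool of cells from 2 to 3 mice, recovered by peritoneal lavage and sorted for high CD11b with little or no MHC class II. Each pool was measured on 1 array. The Cre driver, the deleted part of the gene and the sex of each pool were not given, and a pool sorted on these 2 markers can hold more than 1 kind of macrophage.

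Macrophages recover iron from the haem of engulfed red cells and from haemoglobin. Haem oxygenase opens the haem ring to give biliverdin, carbon monoxide and iron, and biliverdin reductase turns biliverdin into bilirubin. Iron set free in this way is held in ferritin or leaves the cell through ferroportin, while transferrin receptor 1 brings in iron bound to transferrin. Iron regulatory proteins act on messenger RNA when iron is scarce: they stabilise the transferrin receptor transcript and block translation of the transcripts of ferritin and ferroportin. The transcription factor encoded by Spic is known for its part in the development of iron-recycling red pulp macrophages of the spleen.

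The macrophage label was checked against defining markers. The lowest signal on any array was 46856 for Csf1r, 60996 for Lyz2, 26745 for Cd14 and 7567 for Itgam, none of which passed the test of genotype. The other 3 of the 7 markers did: Cd68 was lower (log2 -0.41, adjusted p = 0.031) and Mertk higher in Gata6-KO (log2 0.43, adjusted p = 0.031), each kept in 1 of 6 fits with 1 array left out, at adjusted p up to 0.14 and 0.13 over all variations. Adgre1, which encodes F4/80, averaged 12149 ± 3204 in Gata6-KO and 43123 ± 3980 in Gata6-WT (SD, n = 3 each; adjusted p = 0.00027). Of the 3 Gata6 probe sets, 2 fell (log2 -1.15 and -0.88, adjusted p = 0.0043 and 0.011) and 1 was at 1758 ± 399 in Gata6-KO and 1775 ± 443 in Gata6-WT; their position relative to the deleted part is not known here. Replicate 1 of both genotypes had male-type sex-linked expression (Xist low, Eif2s3y high) and replicates 2 and 3 had the female type. Values are therefore also given for the female-type arrays (2 against 2) and the male-type arrays (1 against 1, no test). Array medians lay between 79.7 and 88.5. The ratio of the 3' to the 5' control probe set was 1.38 to 1.43 in Gata6-KO and 1.43 to 1.498 in Gata6-WT for Actb, and 0.697 to 0.722 in Gata6-KO and 0.742 to 0.778 in Gata6-WT for Gapdh. In RNA from sorted pools, fewer cells of a type and less RNA per cell cannot be told apart.

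Gata6-KO macrophages had more transcript for transferrin receptor, the inducible haem oxygenase, both biliverdin reductases and ferritin heavy chain than wild type macrophages. Tfrc was 5.78-fold higher at its brightest probe set and Hmox1 was 3.35-fold higher, whereas Blvrb, Blvra and Fth1 were raised by 1.58-fold, 1.51-fold and 1.40-fold (limma adjusted p = 0.032 or less, n = 3 each). Over 17 variations of the fit, Blvra was called in 14 and each Fth1 probe set in 10. Hmox1, Blvrb and the brightest Tfrc probe set were called in all 17. Hmox2, Slc11a1 and Slc11a2 did not pass the threshold. Slc40a1 and Spic had no probe set bright enough to be tested. Fold changes are of log2(signal + 16), which understates the change of dim probe sets, and testing required a mean over the 6 arrays above a signal of 47.5.

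Of the 21 probe sets, 13 were tested, 5 were below that limit and 3 were the manufacturer's control probe sets for Tfrc, which were kept out of the fit. Among the 13, 8 rose, 0 fell and 5 did not pass at an adjusted p of 0.05 in limma. At that adjusted p, 5.12% of all 27022 probe sets tested rose and 5.67% fell. At an unadjusted p of 0.05 in limma, 11 of the 13 were higher and 0 lower. The share of all probe sets at an unadjusted p was not computed. This count and the unadjusted counts of the lists below therefore have no matching share. One of the 8, the dimmest Tfrc probe set, passed the filter only through its Gata6-KO signals. Among probe sets with a mean above the limit in both genotypes, 7 of 12 of these genes rose, against 5.23% of all 25006. By gene, 5 of 8 rose, against 5.61% of 12511 genes. The median log2 difference of the 8 genes was 0.59, where that of all genes was -0.04. In 11 of the 13 probe sets every Gata6-KO array lay above every Gata6-WT array, which held for 14.8% of all probe sets tested. With the means of both genotypes above the limit it was 10 of 12, against 14.6%. With 3 arrays per genotype an exact permutation test of a single probe set cannot give a p below 0.1, so the tests given are those of limma across all probe sets.

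**Figure D1:**
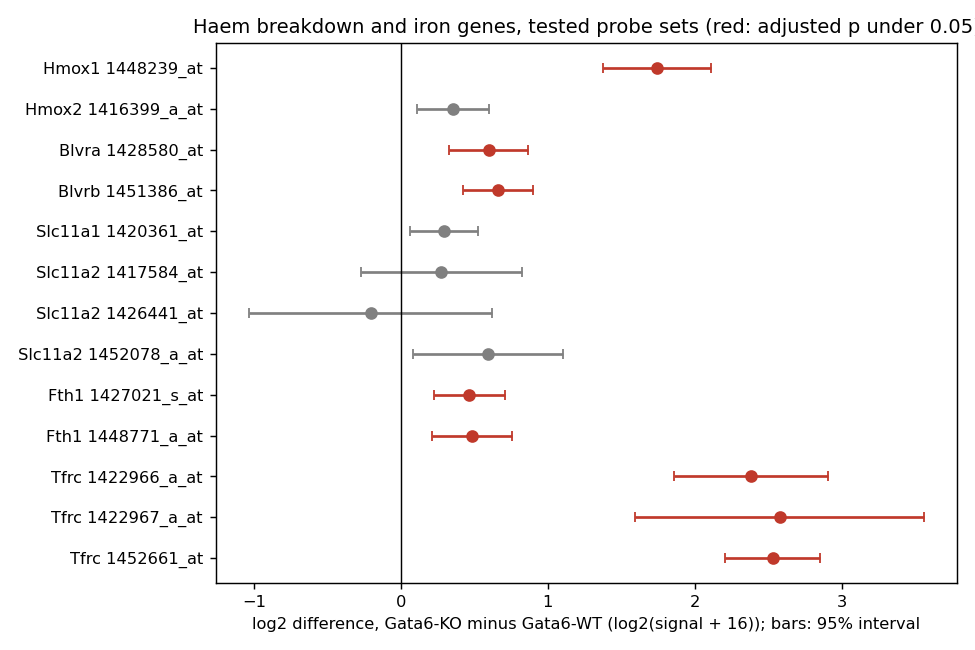
Log2 difference of Gata6-KO minus Gata6-WT on the log2(signal + 16) scale (horizontal axis) for each of the 13 tested probe sets of haem breakdown and iron genes, with its 95% interval; red marks the 8 with an adjusted p under 0.05. The 3 Tfrc probe sets lie between 2.38 and 2.58, Hmox1 at 1.74, and the other 4 called probe sets between 0.46 and 0.66.

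Hmox1 encodes the haem oxygenase that is induced by haem and oxidants. Its signal was 3815, 4051 and 5607 in Gata6-KO replicates 1, 2 and 3, against 1504, 1283 and 1167 in Gata6-WT replicates 1, 2 and 3. The lowest Gata6-KO array was well above the highest Gata6-WT array. The log2 difference was 1.74 ± 0.16 (SE; adjusted p = 0.00019), and it lay between 1.57 and 1.85 with any 1 array left out. It was 1.95 in the female-type arrays and 1.33 in the male-type arrays, a difference that did not pass in a limma interaction test (adjusted p = 1.00, unadjusted 0.096). Gata6-KO replicate 3, the highest for Hmox1, was also the highest of the 3 for both Slc40a1 probe sets and for Cd163. The same held for both Fth1 probe sets, the Slc11a2 probe set of highest mean and, narrowly, Blvra. Gata6-KO replicate 3 was the lowest for Hmox2, Blvrb and the brightest and second brightest Tfrc probe sets.

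Hmox2 encodes the constitutive haem oxygenase. It had 5774, 6299 and 5524 in Gata6-KO, against 4171, 4911 and 4694 in Gata6-WT. The groups did not overlap, but the difference of 0.35 on the log2 scale (95% interval 0.11 to 0.60) did not pass after adjustment (adjusted p = 0.071, unadjusted 0.0092), and it passed under none of the 17 variations of the fit.

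Both biliverdin reductases rose. Blvrb, the reductase that also reduces flavins, had 10971, 13037 and 10861 in Gata6-KO, against 7179, 7367 and 7394 in Gata6-WT. The wild type arrays were tightly grouped and all lay below the Gata6-KO arrays (log2 0.66 ± 0.11, adjusted p = 0.0040). Blvra, which makes bilirubin from the main biliverdin isomer of adults, had 4189, 4890 and 4892 in Gata6-KO and 3158, 2736 and 3335 in Gata6-WT (log2 0.60 ± 0.12, adjusted p = 0.012). The Blvrb call was kept in all 6 fits with 1 array left out. The Blvra call was lost without Gata6-KO replicate 2 or Gata6-WT replicate 2 and without the mean-variance trend (adjusted p = 0.055, 0.054 and 0.073).

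**Figure D2:**
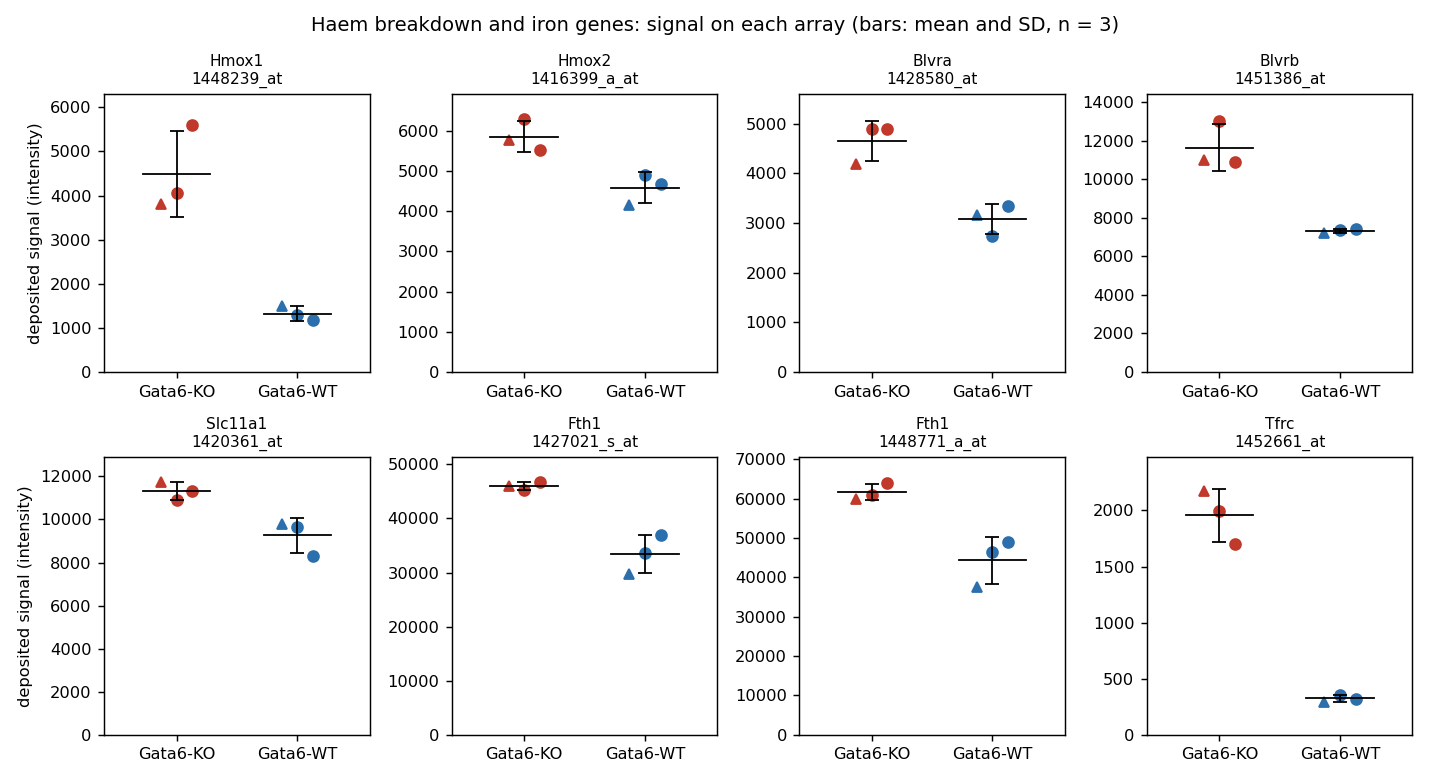
Deposited signal (vertical axis, linear intensity from 0) of 8 probe sets on each array, Gata6-KO left and Gata6-WT right; triangles are male-type and circles female-type arrays, and bars give the mean and SD of 3 arrays. The tested probe sets of Slc11a2, some of which overlapped between genotypes, and the dimmer Tfrc probe sets are not drawn. In all 8 panels the 3 Gata6-KO points lie above the 3 Gata6-WT points, with the widest gaps for Tfrc and Hmox1. The panels leave out the tested probe sets that overlapped, so separation in all of them follows from that choice. Over all 13 tested probe sets of these genes it held for 11, against 14.8% of all probe sets tested. Hmox2 and Slc11a1 did not pass the adjusted threshold.

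Tfrc encodes transferrin receptor 1, the uptake receptor for iron-laden transferrin. At the brightest probe set its signal was 2171, 1998 and 1698 in Gata6-KO and 293, 359 and 322 in Gata6-WT. At the second brightest it was 426, 552 and 410 in Gata6-KO and 87.7, 88.5 and 53.5 in Gata6-WT. The Gata6-KO arrays were several times above every Gata6-WT array at both probe sets (log2 2.53 ± 0.14 and 2.38 ± 0.23, adjusted p = 1.8e-05 and 0.00024). The dimmest tested probe set had 169, 140 and 149 in Gata6-KO, against 5.26, 37.3 and 3.83 in Gata6-WT (log2 2.58 ± 0.44, adjusted p = 0.0054). Its wild type signals were all below the filter limit, so it was tested only through its Gata6-KO signals and adds no independent support; its log2 difference was 1.47 with a pseudocount of 64, and its call was lost in the female-type arrays alone (adjusted p = 0.055). It fell below the filter, and so was not tested, in 5 of the 17 variations: a pseudocount of 1, the filter at the 60th percentile and the omission of any 1 Gata6-KO array.

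The array also carries control probe sets for the 5' end, middle and 3' end of the Tfrc transcript. The 3' control had 244, 327 and 287 in Gata6-KO and 69.0, 73.6 and 58.0 in Gata6-WT. The 5' control had 58.4, 78.1 and 86.3 in Gata6-KO and 3.56, 31.4 and 1.36 in Gata6-WT, and the middle one 68.3, 72.2 and 54.2 in Gata6-KO and 5.90, 8.59 and 38.7 in Gata6-WT. The groups did not overlap at any of the 3. All 6 Tfrc probe sets were thus higher in each Gata6-KO array than in any Gata6-WT array. The 6 probe sets read 1 gene and are not independent. Wild type signals of the 5' and middle controls and of the dimmest tested probe set were all below the filter limit of 47.5. In the female-type and male-type arrays the log2 difference at the brightest was 2.38 and 2.82.

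**Figure D3:**
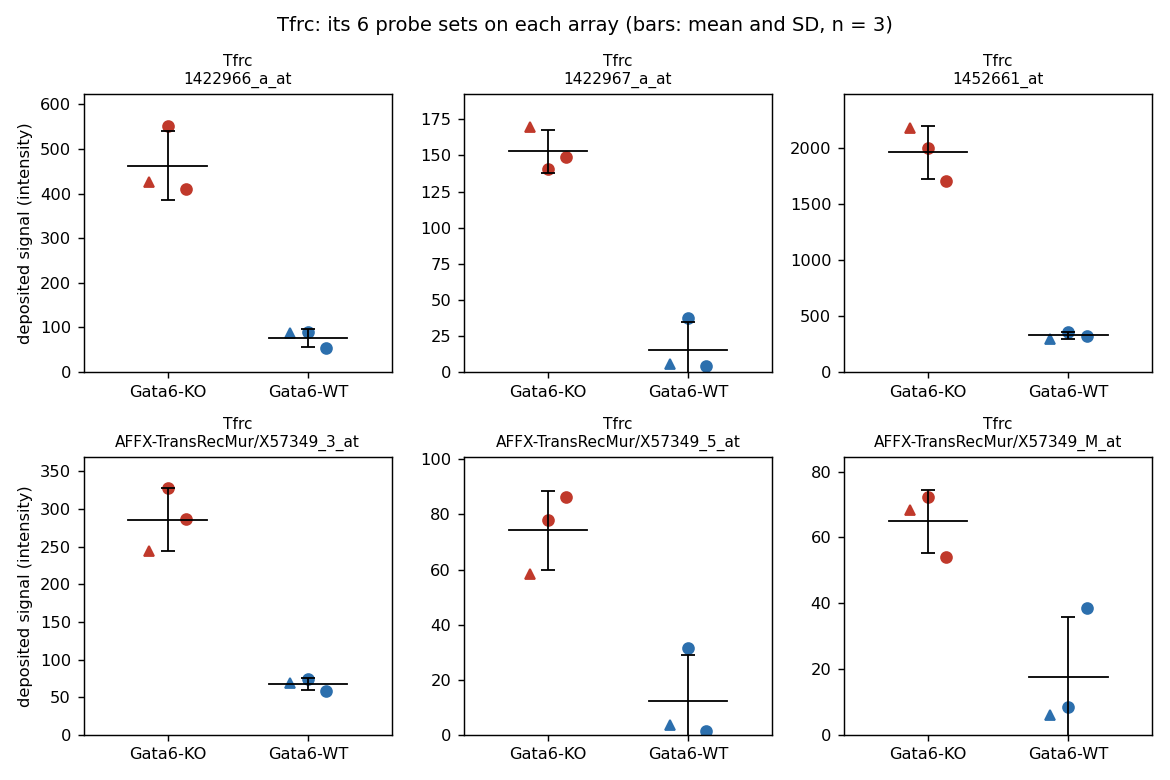
Deposited signal (vertical axis, linear intensity from 0) of the 6 Tfrc probe sets on each array, Gata6-KO left and Gata6-WT right; triangles are male-type and circles female-type arrays, and bars give the mean and SD of 3 arrays. The groups are apart in every panel, from the brightest probe set (1698 to 2171 in Gata6-KO, 293 to 359 in Gata6-WT) to the middle control (54.2 to 72.2 in Gata6-KO, 5.90 to 38.7 in Gata6-WT).

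Promoters were read from RefSeq (GRCm38.p6), which gave 12 start sites for 7 of the 10 genes; Hmox1, Slc40a1 and Slc11a2 were not among them. Each window ran from 250 bases before to 50 bases after a start site and was searched on both strands. The motifs were the core of the antioxidant response element (TGACNNNGC) and 1 form of the hypoxia response element core (ACGTG, also part of the E-box). A GATA motif (AGATAA), the core bound by PU.1 and SPIC (GAGGAAGT), the E-box (CACGTG) and an AP-1 motif (TGANTCA) were also searched. The other form of the hypoxia core, GCGTG, was not searched and is not marked below. The genes shown were settled on after the matches had been seen. The stretches before the first start site of Tfrc, Blvra and Blvrb are shown because these 3 genes rose and were the only ones with a match in any of their windows, whereas Fth1 rose and its windows held none; the Tfrc stretch includes the first 3 transcribed bases. They are chr16:32608646-32608898, chr2:127070407-127070628 and chr7:27447728-27447977, all on the plus strand, and capitals mark a match to 1 of these motifs.
Tfrc: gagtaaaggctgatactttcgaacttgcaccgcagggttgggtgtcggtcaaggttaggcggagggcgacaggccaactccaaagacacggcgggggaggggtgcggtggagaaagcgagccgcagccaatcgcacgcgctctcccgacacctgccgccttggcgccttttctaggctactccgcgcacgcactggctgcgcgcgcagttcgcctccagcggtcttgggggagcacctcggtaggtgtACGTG
Blvra: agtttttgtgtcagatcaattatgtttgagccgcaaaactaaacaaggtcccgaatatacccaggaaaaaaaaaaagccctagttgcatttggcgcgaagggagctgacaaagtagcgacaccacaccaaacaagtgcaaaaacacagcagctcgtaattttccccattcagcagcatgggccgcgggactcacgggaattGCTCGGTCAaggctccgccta
Blvrb: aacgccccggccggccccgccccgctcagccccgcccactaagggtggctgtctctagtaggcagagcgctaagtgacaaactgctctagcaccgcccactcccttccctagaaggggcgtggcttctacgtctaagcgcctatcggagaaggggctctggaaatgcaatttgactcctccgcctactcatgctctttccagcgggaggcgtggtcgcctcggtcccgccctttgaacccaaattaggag
ACGTG lies at -2 to 3 of the Tfrc start, counted with the first transcribed base as 1. The same bases fall at -228 to -224 of a second Tfrc start site. A later Blvrb start site has ACGTG at -123 to -119, whereas the Blvrb stretch shown holds no match. TGACNNNGC lies at -49 to -41 of the Blvra start, on the minus strand, and in no other window of these genes. That start is base 127070657, and the Blvra stretch shown stops short of it, at base 127070628. The bases between are not printed. The GATA motif, the PU.1 and SPIC core, the E-box and the AP-1 motif were each in 0 of the 12 windows. Of all 32851 windows in the table, 19.6% held ACGTG, 12.4% TGACNNNGC, 11.2% the GATA motif, 7.81% the AP-1 motif, 7.15% the E-box and 3.20% the PU.1 and SPIC core.

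Fth1, the heavy chain of ferritin, which oxidises iron for storage, was among the brightest probe sets of the array. At the brighter probe set it had 60060, 60883 and 64000 in Gata6-KO, against 37518, 46518 and 49018 in Gata6-WT, and at the other 45981, 45231 and 46647 in Gata6-KO, against 29782, 33539 and 36929 in Gata6-WT. The Gata6-KO arrays were tightly grouped and lay above a wider wild type range, with Gata6-WT replicate 1 the lowest. The log2 differences were 0.48 ± 0.12 and 0.46 ± 0.11 (adjusted p = 0.032 and 0.024). Both calls were lost when any 1 Gata6-KO array or Gata6-WT replicate 2 was omitted, with no filter, with no trend and in the female-type arrays alone (log2 0.39 and 0.38), at adjusted p = 0.072 to 0.13 for the brighter and 0.078 to 0.11 for the other probe set. Fth1 has pseudogenes, and cross-hybridisation by related transcripts was not tested.

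Slc40a1 encodes ferroportin, the iron exporter. Its first probe set had 63.7, 81.3 and 221 in Gata6-KO, against 29.7, 6.86 and 8.53 in Gata6-WT, and the second had 85.0, 15.5 and 145 in Gata6-KO, against 5.67, 30.6 and 18.2 in Gata6-WT. All wild type signals were dim, and at the second probe set the groups overlapped through Gata6-KO replicate 2. Both fell below the filter and were not tested. With no filter, the log2 difference was 2.05 at the first (adjusted p = 0.054) and 1.298 at the second (adjusted p = 0.32), and with a pseudocount of 64 the first was 1.15 (adjusted p = 0.038). Its wild type signals were all below the limit, so like the dim Tfrc probe set it could be tested only through its Gata6-KO signals. It was also tested in the fits that omitted Gata6-WT replicate 2 or 3, where it did not pass (adjusted p = 0.089 and 0.077). The first probe set had its mean at the 38.3rd percentile of all probe sets, just below the filter at the 40th, while the dim Tfrc probe set, just above it, was at the 42.5th.

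The transporters of divalent metals did not pass. Slc11a1, which moves iron and manganese out of the phagosome of macrophages, had 11762, 10897 and 11317 in Gata6-KO, against 9784, 9667 and 8325 in Gata6-WT. The groups did not overlap, and the log2 difference was 0.29 (95% interval 0.06 to 0.53, adjusted p = 0.11). Slc11a2, which carries iron out of the endosome after transferrin uptake, had 3 tested probe sets with log2 differences of 0.59, 0.28 and -0.20 (adjusted p = 0.14, 0.54 and 0.79) and 1 below the filter, with 11.8 to 49.3 in Gata6-KO and 29.6 to 58.6 in Gata6-WT. At the one with the highest mean the signal was 244, 229 and 302 in Gata6-KO and 216, 158 and 130 in Gata6-WT, with a 95% interval of the difference of 0.09 to 1.10.

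Spic was dim in both genotypes. Its brighter probe set had 7.36, 32.4 and 28.9 in Gata6-KO and 61.5, 45.8 and 20.8 in Gata6-WT, and the other had 3.24, 17.4 and 2.18 in Gata6-KO and 3.37, 0.848 and 45.7 in Gata6-WT. The groups overlapped at both. With no filter the log2 differences were -0.60 and -0.26 (adjusted p = 0.57 and 0.86), and at these signals no difference was detectable. Among 3 tested markers of red pulp macrophages other than these genes, 0 rose and 2 fell in limma (0 higher and 2 lower at an unadjusted p of 0.05): Il18bp (log2 -2.03, adjusted p = 0.014; 0.053 without Gata6-WT replicate 2) and Cd5l (log2 -0.64, adjusted p = 0.037; lost without Gata6-KO replicate 1 or 2 or Gata6-WT replicate 2 or 3, at up to 0.14). Vcam1, an adhesion molecule of red pulp macrophages, averaged 123 ± 14.5 in Gata6-KO and 91.3 ± 13.2 in Gata6-WT and did not pass (adjusted p = 0.38).

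**Figure D4:**
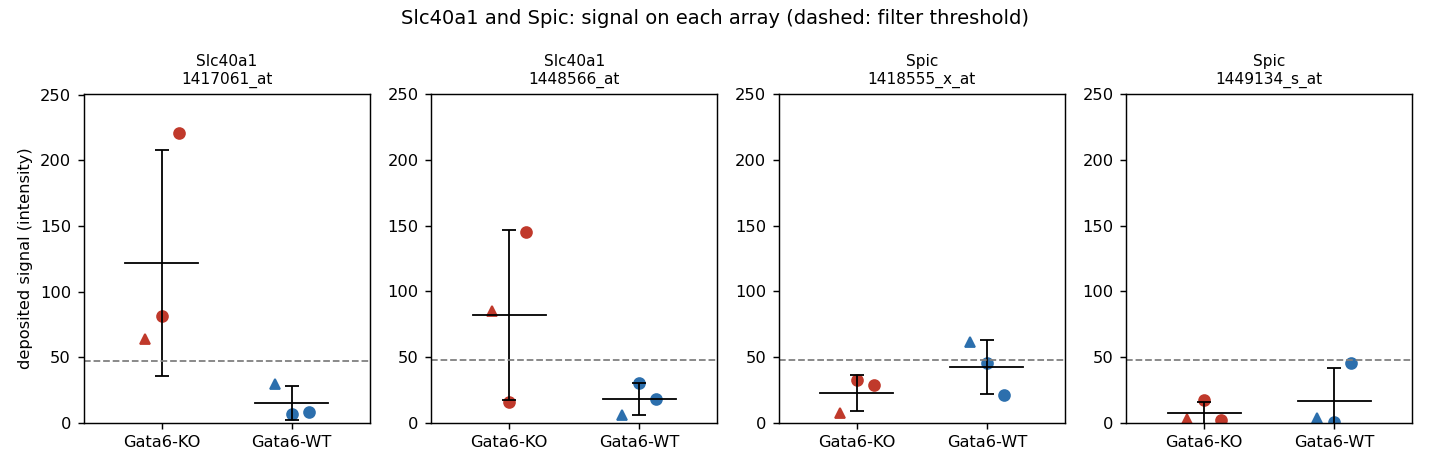
Deposited signal (vertical axis, linear intensity) of the Slc40a1 and Spic probe sets on each array, Gata6-KO left and Gata6-WT right, with the filter limit of 47.5 dashed; triangles are male-type and circles female-type arrays, and bars give the mean and SD of 3 arrays. Slc40a1 exceeded the limit in 3 and 2 of the Gata6-KO arrays and in 0 of the Gata6-WT arrays, while Spic exceeded it in 1 Gata6-WT array at 1 probe set.

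Neighbouring steps of haem and iron metabolism were described by 7 further lists. Of their 62 tested genes 3 rose, 7 fell and 52 did not pass, so that 4.84% rose and 11.3% fell, against 5.61% and 7.46% over all genes. The numbers were 4 higher and 4 lower with no filter and also without Gata6-WT replicate 3, and 3 and 3 without Gata6-KO replicate 2. In uptake and transport of haemoglobin and haem, 1 of 8 rose and 2 fell. Cd163, the receptor for haptoglobin bound to haemoglobin, had 8515, 4054 and 20168 in Gata6-KO and 151, 178 and 235 in Gata6-WT, so its Gata6-KO arrays were spread widely but far above wild type. Hp, which encodes haptoglobin itself, moved the other way, with 1494, 644 and 281 in Gata6-KO and 5647, 4857 and 4047 in Gata6-WT (log2 -2.85 ± 0.46, adjusted p = 0.0042). Abcg2, a transporter that can export haem and porphyrins, also fell (log2 -1.46, adjusted p = 0.015), a call lost on omission of Gata6-KO replicate 2, Gata6-KO replicate 3 or Gata6-WT replicate 1 (adjusted p = 0.055, 0.055 and 0.0501).

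Among other genes of iron uptake, storage and export, 1 of 14 rose and 2 fell. Steap3, the ferrireductase that prepares endosomal iron for transport after transferrin uptake, had 450, 440 and 516 in Gata6-KO and 119, 159 and 191 in Gata6-WT (log2 1.51 ± 0.20, adjusted p = 0.0014). All 3 tested Steap3 probe sets rose (log2 0.93 to 1.51). Slc22a17, a receptor for the siderophore-binding protein lipocalin 2, fell to 206, 226 and 280 in Gata6-KO, against 928, 916 and 1391 in Gata6-WT (log2 -2.10 ± 0.20, adjusted p = 0.00020). Pcbp2, an RNA-binding protein that also chaperones iron, fell by 0.53 on the log2 scale (adjusted p = 0.029), and with 1 array left out that call was kept only in the fit without Gata6-WT replicate 1 (adjusted p up to 0.098 in the others).

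In iron sensing and hepcidin genes, 1 of 9 rose and 1 fell. Aco1, the cytosolic aconitase that becomes iron regulatory protein 1, had 7679, 8868 and 8710 in Gata6-KO and 4790, 6029 and 5182 in Gata6-WT (log2 0.66 ± 0.12, adjusted p = 0.0070). Its other tested probe set, at 0.34, did not pass, and without the trend the call was lost (adjusted p = 0.058). Epas1, the hypoxia-inducible factor HIF-2 alpha, had 736, 1030 and 886 in Gata6-KO and 2259, 2576 and 2204 in Gata6-WT (log2 -1.40 ± 0.14, adjusted p = 0.00034). Ireb2, iron regulatory protein 2, which was chosen for its role after its values were seen, was at log2 0.27 (95% interval 0.001 to 0.53, adjusted p = 0.20).

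The known regulators of Hmox1 gave 0 calls in limma among the 6 tested genes at the probe set used, and 0 at an unadjusted p of 0.05. Nfe2l2, which encodes the oxidant-responsive activator NRF2, averaged 4779 ± 423 in Gata6-KO and 4131 ± 219 in Gata6-WT (log2 0.21, adjusted p = 0.27), and its inhibitor Keap1 was at 0.23 (adjusted p = 0.34), although a second Keap1 probe set rose (log2 0.57, adjusted p = 0.047). A second probe set of Mafg, which encodes a small MAF partner of NRF2 and BACH1, fell (log2 -0.79, adjusted p = 0.027), where the one used was at 0.16 (adjusted p = 0.56). Bach1, the haem-binding repressor of Hmox1, likewise chosen for its role, averaged 7121 ± 536 in Gata6-KO and 7914 ± 561 in Gata6-WT (log2 -0.15, adjusted p = 0.42). Of 7 other NRF2 target genes 0 rose and 1 fell in limma (3 higher and 2 lower at an unadjusted p of 0.05). The 3 higher, named after their values were seen, were Gclm, Srxn1 and Txnrd1 (log2 0.39, 0.48 and 0.31, adjusted p = 0.18, 0.12 and 0.14). Me1, named likewise, was lower without passing (log2 -0.90, adjusted p = 0.059). The gene that fell was the glutathione reductase gene Gsr (log2 -1.01, adjusted p = 0.045). A second Gsr probe set also fell (log2 -0.65, adjusted p = 0.021). With 1 array left out the call at the probe set used was kept only in the fit that omitted Gata6-KO replicate 3; on omission of replicate 1 of that genotype the log2 difference was -0.67 (adjusted p = 0.080).

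Haem synthesis held 10 tested genes, of which 0 passed in limma and 0 had an unadjusted p under 0.05. The smallest p belonged to Abcb6, a porphyrin transporter (log2 -0.38, adjusted p = 0.30), and Uros, uroporphyrinogen synthase (log2 -0.28, adjusted p = 0.31). In iron-sulphur cluster assembly 0 of 8 rose and 1 fell in limma (0 higher and 3 lower at an unadjusted p of 0.05); the gene that fell was the scaffold gene Iscu (log2 -0.47, adjusted p = 0.042), a call lost in each of the 6 fits with 1 array left out (adjusted p = 0.064 to 0.13).

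**Figure D5:**
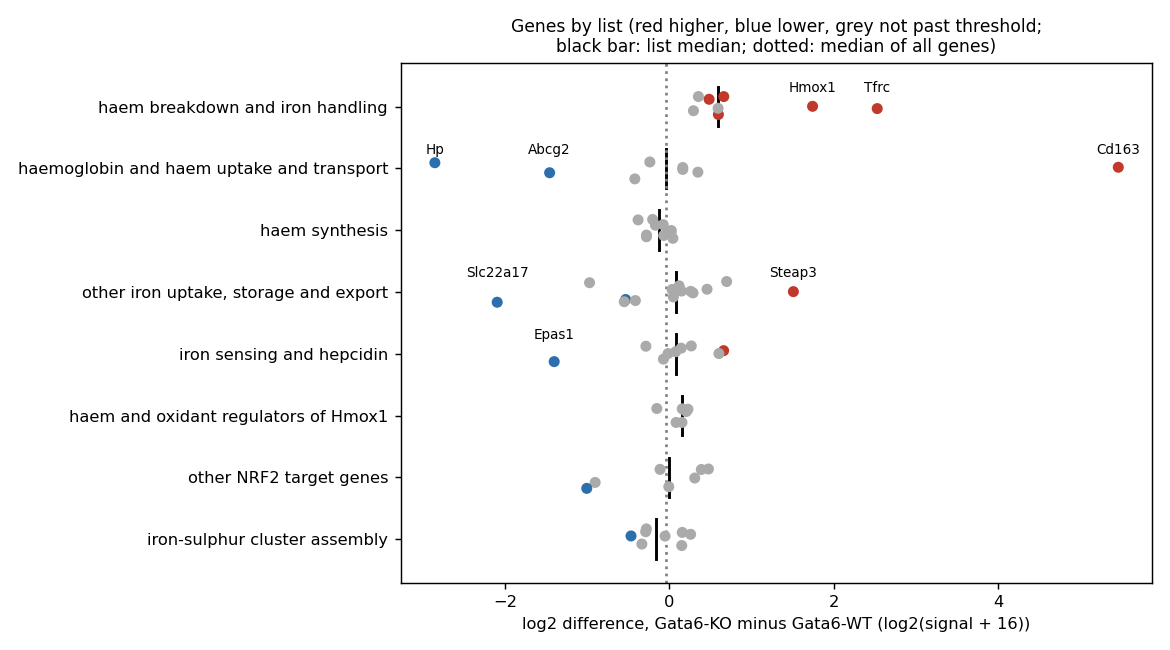
Log2 difference of Gata6-KO minus Gata6-WT (horizontal axis, log2(signal + 16)) for each tested gene of 8 lists; red is higher, blue lower and grey not past the threshold, the black bar is the list median and the dotted line the median of all genes. The haem breakdown and iron handling genes have a median of 0.59, while the medians of the other 7 lists lie between -0.17 and 0.16.

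Markers of other cells were set beside these results. Of 40 markers of 9 other cell types, 31 had a probe set with 1 symbol, 11 were tested, 1 rose and 1 fell (2 higher and 3 lower at an unadjusted p of 0.05). Both tested mast cell markers were among the lower ones without passing, Cpa3 at log2 -0.78 (adjusted p = 0.051) and Cma1 at -1.31 (adjusted p = 0.083). The marker that rose was Ccr2, a monocyte receptor, with 9632, 2401 and 1740 in Gata6-KO and 186, 105 and 106 in Gata6-WT, and the one that fell was S100a8 of neutrophils (log2 -1.20, adjusted p = 0.029; lost without Gata6-KO replicate 2 or 3 or Gata6-WT replicate 1 or 3, at up to 0.089). Ccr2 was the only 1 of 4 listed monocyte markers with a probe set of 1 symbol. Among the 3 Gata6-KO arrays, Ccr2 and the brightest Tfrc probe set were both highest in replicate 1 and lowest in replicate 3. The second brightest Tfrc probe set had 426, 552 and 410 in Gata6-KO replicates 1, 2 and 3. The 3' control for Tfrc had 244, 327 and 287. Hmox1 was highest in replicate 3 and lowest in replicate 1. Of 7 listed erythroid markers, only 5 had a probe set with 1 symbol. The summed signal of these 5 was 378 to 549 in Gata6-KO and 331 to 456 in Gata6-WT. Of the 3 tested, 0 passed in limma (1 at an unadjusted p of 0.05). The part of monocytes or of red cell material in the rises of Tfrc, Hmox1, Blvra, Blvrb and Fth1 was not tested. The order of 3 arrays cannot measure it.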

How the data were processed

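Total RNA of sorted peritoneal macrophages was labelled with biotin, 1 array per pool. The deposited values are linear intensities, 1 signal per probe set and array; per the submitters' processing notes the authors used MAS5 and affy, with no version given. The mean without the top and bottom 2% of probe sets was 500 on every array, so arrays had been scaled before deposit. Low MAS5 signals are noisy, and no detection calls were used. Precision is limited by the number of arrays, and p-values measure the spread between pools.

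Symbols came from the array annotation (34958 probe sets with 1, 932 with several, 9211 with none). Control probe sets (64) were left out, and probe sets with a mean log2(signal + 16) over 6 arrays above the 40th percentile (27022) entered the limma fit (version 3.58.1, R 4.3.3; eBayes with trend, two-sided, Benjamini-Hochberg over all tested, threshold 0.05). For listed genes the tested probe set of highest mean was used. From each further list up to 4 called genes with the largest change were named or, with none called, the 2 with the smallest p. The fit was tested on simulated data in which few probe sets changed. False calls were close to the nominal share when variances were drawn around a smoothed trend with a preset spread. They were somewhat above it when variances were limma's moderated estimates from these arrays. The genes and lists were chosen with earlier results of these data known. Figures used matplotlib 3.10.9.

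Alternatives covered pseudocounts, filters, scaling, trend, array weights, replicate block, sex-linked type, omission of each array, stricter thresholds and averaging of probe sets. Other genes measured on the array are not reported here.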

Additional observations from a re-analysis of the deposited data

How the results depend on the processing

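Of the 13 tested probe sets, Hmox1, Blvrb and the brightest and second brightest Tfrc probe sets kept their call under all 17 variations of the fit, with Hmox1 between 1.57 and 1.95 and Blvrb between 0.58 and 0.71. Each Fth1 probe set was called in 10 of 17 and Blvra in 14 of 17. The count of 8 called probe sets of these genes was 5 without the mean-variance trend, 5 in the female-type arrays alone, 5 at an adjusted p under 0.01 and 4 at a change of at least 2-fold, with a range of 4 to 8 when 1 array was left out. It was 4 when Gata6-KO replicate 2 was omitted, and 5 for the omission of Gata6-KO replicate 1 or 3 or of Gata6-WT replicate 2. Without the trend the 2916 changed probe sets became 1459 and the 10 changed pathway genes 5. The 2916 became 1615 in the female-type arrays, 1251 at an adjusted p under 0.01 and 1256 at 2-fold or more, and the 10 became 6 at an adjusted p under 0.01; with 1 array left out they ranged over 1851 to 2465 and 6 to 9. The cause of these shifts was not tested. The split of 1384 higher and 1532 lower probe sets was 1166 and 1706 after median scaling, with 7 of the 12 haem and iron probe sets above the limit in both genotypes higher and 0 lower under both. Among these 12, 4 to 7 were called over all fits, with 5 when no filter was used, 4 without the trend and 4 without Gata6-WT replicate 2. The dimmest tested Tfrc probe set was not tested in 5 of the 17 variations, and the dimmest tested Slc11a2 probe set in 1. With the replicate block the counts were 3076, 8 and 10. Same-numbered samples deviated together only weakly (r = 0.13, 0.07 and 0.07), each correlating best with its own number, and the labels give no basis for pairing. The Gata6 probe set at -0.88 was not called without the trend (adjusted p = 0.067). The direction of the dimmest tested Slc11a2 probe set turned to 0.19 in the female-type arrays, and with 1 array left out it ranged from -0.47 to 0.20 (0.20 without Gata6-KO replicate 1). That of the Gata6 probe set that did not pass turned to 0.075 with array weights, and with 1 array left out it ranged from -0.17 to 0.18 (0.16 omitting Gata6-KO replicate 2, 0.18 omitting Gata6-WT replicate 3). Signals near the filter limit, as for Slc40a1 and Spic, limit what could be detected.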
